A study of Homo sapiens with 5 samples.

Results

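Ribose 2′-O-methylation was described at the 18 listed positions of human 18S rRNA from nucleotide 683 onwards, of 110 rRNA positions in all. They are defined by number alone and run to position 1804, so no measured value decides which positions belong. They lie in the parts of 18S that build the platform, the head and the decoding region of the small ribosomal subunit. The other 92 positions comprise 23 lower-numbered positions of 18S, 67 of 28S and 2 of the shorter rRNA that pairs with 28S. The levels came from 5 RiboMethSeq libraries of PaTu cells, a name carried by established human pancreatic cancer lines. The libraries were labelled ADAR1 #1, ADAR1 #2, ADAR2 #1, Mock and SCR, 1 library for each label. ADAR1 and ADAR2 are the enzymes that deaminate adenosine to inosine in double-stranded RNA. How the ADAR genes were altered, and what #1 and #2 stand for, is not given in the labels. Mock and SCR were set together as the comparison group because neither carries an ADAR label. They are called the controls below. Whether the libraries stem from separate cultures is not stated, so any p-value measures the spread between these libraries only, which may be technical. The gap between Mock and SCR and that between ADAR1 #1 and ADAR1 #2 count as this spread. It may therefore also hold differences between what those labels stand for.

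Methylation of the ribose is placed on most rRNA sites by fibrillarin, which acts in a particle with a box C/D small nucleolar RNA (snoRNA). The snoRNA pairs with the rRNA, and the nucleotide paired at the fifth base before its D or D′ box receives the methyl group. In RiboMethSeq the RNA is broken in alkali and fragment ends are counted. A methylated ribose protects the bond after it, so a level near 1 means few fragment ends at that place, and a level of 0 means that no protection was scored. The small subunit binds the messenger RNA and reads its codons. Its head and platform enclose the path of the messenger, and helix 44 of the 3′ minor domain carries the decoding centre.

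The sequences around positions with wide ranges between libraries, and around neighbouring positions, are shown first, because several of them share 1 pairing region. Capitals in the rRNA lines mark the listed nucleotides, and letters are written as DNA. The rRNA was read from the GENCODE release 29 transcript FP236383.3, which runs antisense inside the RefSeq gene RNA18SN1 (chr21:8436876-8438744, GRCh38.p14) and covers nucleotides 754 to 1676 of 18S. It holds 14 of the 18 positions, and 683, 1678, 1703 and 1804 are given by number only. Of the 3 similar transcripts compared with it letter by letter, without gaps, FP236383.2 and FP671120.3 had 0 differing bases over this stretch. FP671120.4 had 106.
18S 855 to 879 (chr21:8437730-8437754, plus strand), position 867: gctaggaataatGgaataggaccgc
18S 1260 to 1284 (chr21:8438135-8438159, plus strand), position 1272: acctcacccggcCcggacacggaca
18S 1316 to 1338 (chr21:8438191-8438213, plus strand), positions 1326 and 1328: ccgtgggtggTgGtgcatggccg
18S 1373 to 1401 (chr21:8438248-8438276, plus strand), positions 1383 and 1391: ccgataacgaAcgagactCtggcatgcta
18S 1430 to 1457 (chr21:8438305-8438332, plus strand), positions 1440, 1442 and 1447: cgtcccccaaCtTcttaGagggacaagt

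The guide snoRNAs of these positions are shown because the pairing tells which listed position each of them faces. Capitals mark the bases paired with 18S, counted without a gap and with G-T pairs allowed, ending before the box CTGA.
SNORD98, for 867 (chr10:68755172-68755238, plus strand, within CCAR1): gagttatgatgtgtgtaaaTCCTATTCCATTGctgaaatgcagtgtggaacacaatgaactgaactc
SNORD66, for 1272 (chr3:184325696-184325771, plus strand, an intron of EIF4G1): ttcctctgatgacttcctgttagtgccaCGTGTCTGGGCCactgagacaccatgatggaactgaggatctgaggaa
SNORD33, for 1326 (chr19:49490615-49490699, plus strand, within RPL13A): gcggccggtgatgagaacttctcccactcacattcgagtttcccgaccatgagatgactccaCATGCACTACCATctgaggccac
SNORD32A, for 1328 (chr19:49489965-49490048, plus strand, within RPL13A): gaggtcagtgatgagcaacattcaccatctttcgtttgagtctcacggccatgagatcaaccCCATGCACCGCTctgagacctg
SNORD28, for 1391 (chr11:62854621-62854695, minus strand, within SNHG1): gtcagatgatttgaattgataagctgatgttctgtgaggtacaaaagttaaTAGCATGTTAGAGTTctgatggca
SNORD125, for 1440 (chr22:29333163-29333258, minus strand, an intron of AP1B1): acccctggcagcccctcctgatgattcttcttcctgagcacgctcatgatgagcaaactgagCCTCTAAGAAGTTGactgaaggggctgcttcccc
SNORD61, for 1442 (chrX:136879199-136879271, minus strand, within RBMX): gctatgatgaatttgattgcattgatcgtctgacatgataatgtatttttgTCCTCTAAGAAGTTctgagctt
SNORD127, for 1447 (chr14:45110883-45110968, plus strand, an intron of PRPF39): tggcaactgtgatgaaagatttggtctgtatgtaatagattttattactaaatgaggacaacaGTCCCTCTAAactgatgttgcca

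Each position in the sequence read was found opposite the fifth base before a CTGA box of its named guide, with the exception of 797 and 1440, for which no guide had been named. The pairing ran over 9 bases for SNORD30 at position 1383, 10 for SNORD127 at 1447, and 15 for SNORD105 at 799 and for SNORD28 at 1391. A search of all 282 SNORD transcripts used here, on the snoRNA strand only, faced 1440 with SNORD125 over 14 bases and faced 797 with none. By this search, with at least 9 paired bases at that distance from CTGA, 13 of the 14 positions had a match (92.9%), and so did 17.6% of 899 nucleotides of the same stretch. Such a match is a description of the letters, and it checks that the numbering of the table is that of RNA18SN1. By base, 2 of the 14 positions are A, 4 are C, 4 are G and 4 are T (U in the RNA).

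**Figure D1:**
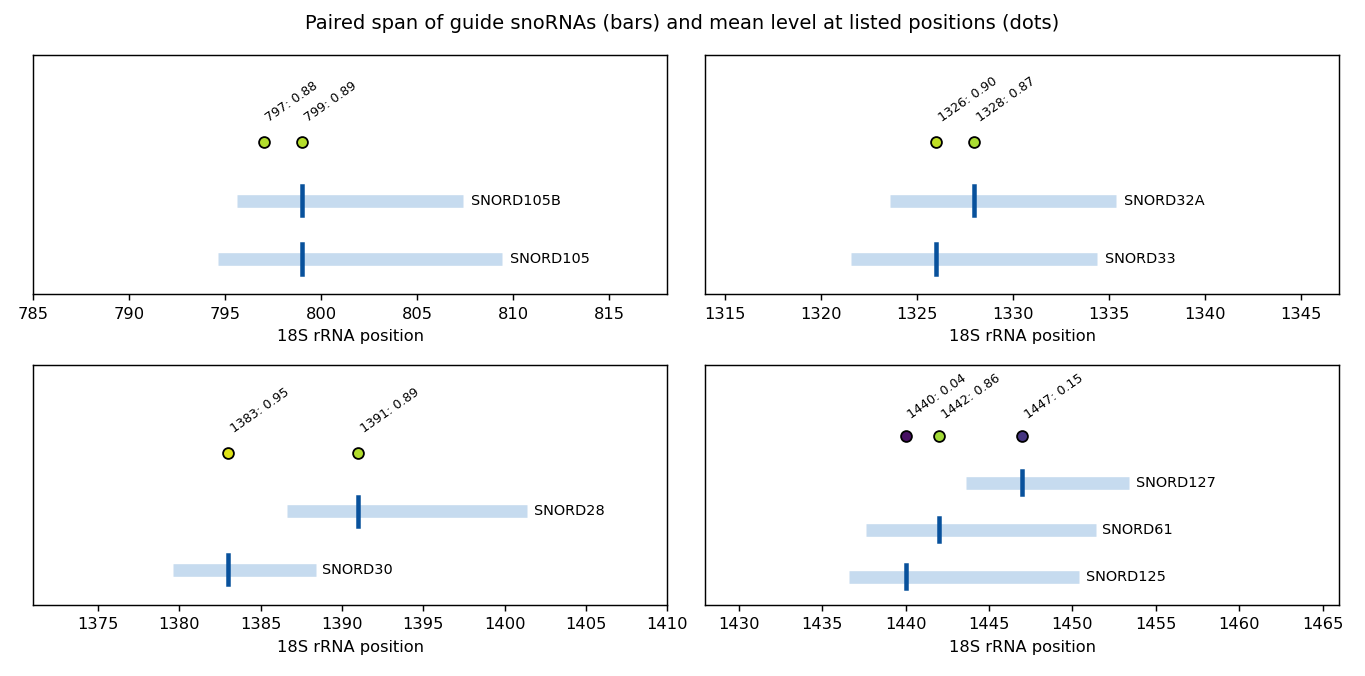
Spans of 18S rRNA paired with guide snoRNAs (bars, with the facing position as a dark mark) and the listed positions (dots, labelled with the number and the mean level over 5 libraries), along the 18S nucleotide number. SNORD125, SNORD61 and SNORD127 pair with overlapping spans, and the listed positions there have mean levels of 0.0408 at 1440, 0.860 at 1442 and 0.154 at 1447.

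The 18 positions were mostly highly methylated. Averaged over the 5 libraries, 8 had a level of at least 0.9, 8 lay between 0.5 and 0.9, and 2 were below 0.5 (1440 and 1447). Over all 110 positions those counts were 48, 56 and 6. The highest mean levels were at position 1678, a target of SNORD82 (0.961), and position 1490, a target of SNORD25 (0.959). The order was steady at the low end: 1440 was the lowest and 1447 the next lowest in each of the 5 libraries, and 867 and 1272 took the third and the fourth place. Position 1804 held rank 5 from the lowest in ADAR1 #1, Mock and SCR, but rank 8 in ADAR1 #2 and rank 7 in ADAR2 #1.

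The libraries did not differ evenly. The range over the 5 libraries had a median of 0.0318 at these 18 positions and 0.0326 over all 110. It was 0.0191 in the median at positions with a mean of at least 0.9 and 0.0404 at those between 0.5 and 0.9. Mock and SCR lay a median of 0.00535 apart. The 2 ADAR1 libraries were further apart than Mock and SCR at 16 of the 18 positions. The same count was not made over all 110 positions. By root mean square over the 18 positions, ADAR1 #1 and ADAR1 #2 were 0.0405 apart, while Mock and SCR were 0.0153 apart. ADAR1 #2 lay 0.0152 from ADAR2 #1 at these 18 positions, about as close as Mock and SCR to each other. Over all 110 positions ADAR1 #1 and ADAR1 #2 were 0.0594 apart, more than at the 18. There ADAR1 #2 and ADAR2 #1 were 0.0266 apart, and Mock and SCR were 0.0155 apart. At the 23 lower-numbered positions of 18S the ADAR1 libraries were 0.0932 apart by the same measure, and Mock and SCR were 0.0173 apart. By the median absolute difference the ADAR1 libraries were 0.0152 apart at the 18 positions and 0.010 apart at those 23, the opposite order, and neither order was tested.

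**Figure D2:**
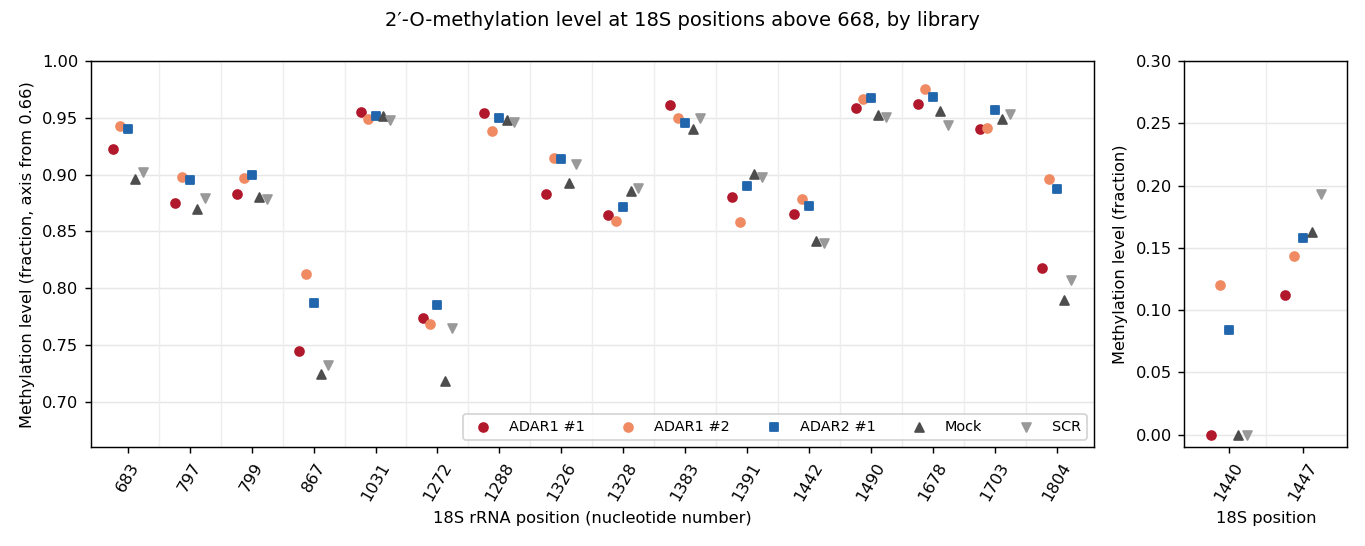
Methylation level (fraction from 0 to 1) at each of the 18 positions in the libraries ADAR1 #1, ADAR1 #2, ADAR2 #1, Mock and SCR, 1 point per library. The left axis starts at 0.66, and the right panel shows the 2 positions below 0.5. At 1804, ADAR1 #2 (0.896) and ADAR2 #1 (0.887) stand above the other 3 libraries, which lie between 0.790 and 0.818.

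The comparison of ADAR1 with Mock and SCR asked whether methylation of this part of 18S differed. No position passed the test. With limma on all 110 positions and Benjamini-Hochberg adjustment, 0 of 18 passed an adjusted p of 0.05 (0% of all 110), and the lowest adjusted p among the 18 was 0.177 at position 683. An unadjusted p under 0.05 was found at 3 of 18 positions (16.7%), all higher in ADAR1, and at 19.1% of all 110. These were 683, 1490 and 1678, named here after their values were seen.

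The mean ADAR1 level was above that of Mock and SCR at 12 positions (66.7%, beside 63.6% of all 110) and below it at 6. The median difference was 0.0110, beside 0.0078 over all 110 positions. Both ADAR1 libraries lay above both Mock and SCR at 8 positions (44.4%, beside 35.5% of all 110) and below both at 4 (22.2%, beside 14.5%), 12 in all (66.7%, beside 50%). The lower ones were 1328, 1391, 1447 and 1703. By a size rule that also asks for a mean difference of at least 0.05, 1 position was higher (1804, where 7.27% of all 110 were higher) and 1 lower (1447, where 3.64% were lower). The rule gave 1 position without ADAR1 #2 (5.56%, beside 11.8% of all 110) and 3 without ADAR1 #1 (16.7%, beside 18.2%). When 1 ADAR1 library was left out of the fit, 11 of the 18 passed without ADAR1 #1 (61.1%, beside 50% of all 110) and 3 without ADAR1 #2 (16.7%, beside 25.5%). Only Mock and SCR then gave the spread, so those are comparisons of a single library that is assumed to vary as they do.

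ADAR2 #1 was compared with Mock and SCR in the same fit. A single library gives no spread of its own, so ADAR2 #1 is assumed to vary like the other groups. Every p-value and interval that involves ADAR2 rests on the spread within Mock and SCR and within ADAR1. No position passed here either: 0 of 18 (0% of all 110), with a lowest adjusted p of 0.219 (limma, Benjamini-Hochberg) at 683 and 1490. An unadjusted p under 0.05 was found at 3 of 18 (683, 1490 and 1804), all higher, and at 12.7% of all 110 positions. ADAR2 #1 was above the mean of Mock and SCR at 15 positions (83.3%, beside 65.5% of all 110) and below it at 3, with a median difference of 0.0177, beside 0.0053 over all 110. It lay above both Mock and SCR at 13 positions (72.2%, beside 51.8% of all 110) and below both at 3 (16.7%, beside 30.9%), 16 in all (88.9%, beside 82.7%). The lower ones were 1328, 1391 and 1447. At the 23 lower-numbered positions of 18S, ADAR2 #1 lay above both at 15 (65.2%) and below both at 5 (21.7%), with a median difference of 0.0114. The size rule gave 3 higher positions (867, 1440 and 1804, 16.7%, beside 11.8% of all 110) and 0 lower ones (5.45% of all 110), 3 in all beside 17.3%. In a fit of ADAR2 #1, Mock and SCR alone, 7 of the 18 passed (38.9%, beside 33.6% of all 110), again on the gap between Mock and SCR only. The ADAR1 and ADAR2 differences share the Mock and SCR libraries, so they are not independent. How often all 3 ADAR libraries lie on the same side of both controls was not counted over all 110 positions.

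Between ADAR1 and ADAR2 #1, 0 of 18 passed in limma (0% of all 110; lowest adjusted p = 0.528, at 1703), and 1 of 18 had an unadjusted p under 0.05, beside 8.18% of all 110. That position was lower in ADAR1 (1.82% of all 110 were lower and 6.36% higher). The ADAR1 mean was above ADAR2 #1 at 2 of the 18 positions (11.1%, beside 50% of all 110) and below it at 16. Taken singly, ADAR1 #1 was above ADAR2 #1 at 3 of the 18 (47 of all 110) and ADAR1 #2 at 9 (69 of all 110). Their mean differences from ADAR2 #1 over the 18 were -0.0205 and -0.00077, so the low ADAR1 mean came mainly from ADAR1 #1. Both ADAR1 libraries lay below ADAR2 #1 at 7 positions (38.9%, beside 27.3% of all 110) and above it at 1, position 1383 (5.56%, beside 32.7%), 8 in all (44.4%, beside 60%). The size rule gave 0 positions (10% of all 110, 4.55% higher and 5.45% lower) and 2 without ADAR1 #2 (11.1%, beside 19.1%). Without ADAR1 #1, 2 of the 18 passed in limma (11.1%, beside 11.8% of all 110), and without ADAR1 #2, 6 passed (33.3%, beside 38.2%), where the gap between Mock and SCR was again the sole source of spread.

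**Figure D3:**
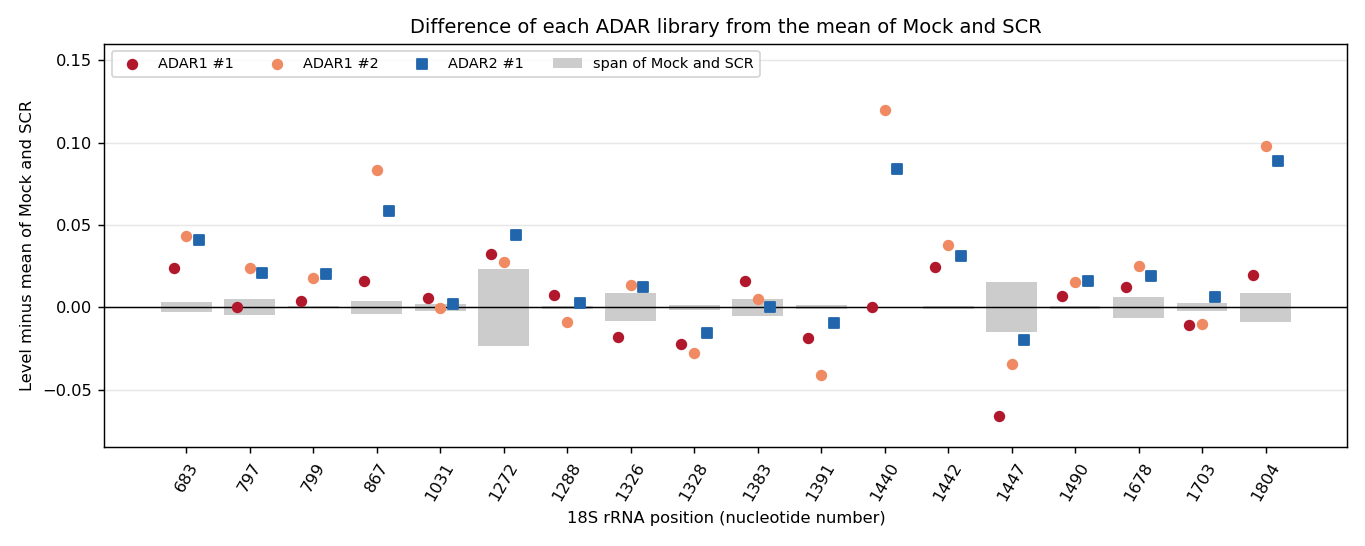
Level of ADAR1 #1, ADAR1 #2 and ADAR2 #1 minus the mean of Mock and SCR at each of the 18 positions, with grey bars for the span of Mock and SCR. ADAR2 #1 is above both Mock and SCR at 13 positions and below both at 3, and the widest span of Mock and SCR is at 1272 (0.0468).

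In the central domain, which forms the platform, all 5 positions had a higher mean in ADAR1 and in ADAR2 #1 than in Mock and SCR. Of all 110 positions, 63.6% were higher in ADAR1 and 65.5% in ADAR2 #1. Both ADAR1 libraries lay above both controls at 3 of the 5 (35.5% of all 110), and ADAR2 #1 at 4 (51.8%). Position 867, a target of SNORD98 whose window is printed above, was at 0.744 in ADAR1 #1, 0.812 in ADAR1 #2 and 0.787 in ADAR2 #1, with Mock at 0.725 and SCR at 0.732. All 3 ADAR libraries were above both controls, but ADAR1 #1 was closer to SCR than to ADAR1 #2. The differences were 0.0497 for ADAR1 (95% interval -0.0200 to 0.119) and 0.0586 for ADAR2 (-0.0268 to 0.144).

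Position 683, a target of SNORD19, was at 0.923 in ADAR1 #1, 0.943 in ADAR1 #2 and 0.940 in ADAR2 #1, with Mock at 0.896 and SCR at 0.902. The ADAR libraries and the 2 others did not overlap. The difference was 0.0337 for ADAR1 (95% interval 0.0105 to 0.0569; limma adjusted p = 0.177) and 0.0408 for ADAR2 (0.0124 to 0.0692; limma adjusted p = 0.219). The ADAR1 difference at 683 was 0.0435 without ADAR1 #1 and 0.0238 without ADAR1 #2.

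Positions 797 and 799 are 2 nucleotides apart, and both lie in the span paired with SNORD105, which faces 799. At 797 the levels were 0.875 in ADAR1 #1, 0.898 in ADAR1 #2 and 0.895 in ADAR2 #1, with Mock at 0.870 and SCR at 0.879. At 799 they were 0.883, 0.897 and 0.8998 in the same ADAR libraries, with Mock at 0.880 and SCR at 0.879. The 2 neighbours therefore had nearly equal levels in each library, although the search found a guide for 799 only. Position 1031, a target of SNORD59A, varied least of the 18, with a range of 0.0079.

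In the 3′ major domain, which forms the head, 6 of 11 positions had a higher and 5 a lower mean in ADAR1. In ADAR2 #1, 8 were higher and 3 lower. The shares that were higher over all 110 positions were 63.6% for ADAR1 and 65.5% for ADAR2 #1. Position 1272, a target of SNORD66, was at 0.774 in ADAR1 #1, 0.769 in ADAR1 #2 and 0.785 in ADAR2 #1, with Mock at 0.718 and SCR at 0.765. Here Mock and SCR were the widest apart of all 18 positions, by 0.0468, and the ADAR1 libraries differed by only 0.0051. The 3 ADAR libraries lay just above SCR, and the ADAR1 difference of 0.0299 (95% interval -0.0285 to 0.0883) was 0.0065 with Mock left out and 0.0533 with SCR left out.

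Positions 1326 and 1328, in the head, are faced by SNORD33 and SNORD32A, snoRNAs encoded within the same host gene, RPL13A. The spans they pair with overlap from 1324 to 1334. At 1326 ADAR1 #1 was at 0.883, ADAR1 #2 at 0.915 and ADAR2 #1 at 0.914, with Mock at 0.893 and SCR at 0.910. ADAR1 #1 was below both controls there and the other ADAR libraries above them. At 1328 the levels were 0.864 in ADAR1 #1, 0.859 in ADAR1 #2 and 0.872 in ADAR2 #1, with Mock at 0.886 and SCR at 0.888, so all 3 were below both controls. The ADAR1 difference at 1328 was -0.0252 (95% interval -0.0540 to 0.0036).

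Positions 1383 and 1391 are 8 nucleotides apart and are targets of SNORD30 and SNORD28, both encoded within SNHG1. At 1391 the levels were 0.880 in ADAR1 #1, 0.858 in ADAR1 #2 and 0.8897 in ADAR2 #1, with Mock at 0.9002 and SCR at 0.898. All 3 ADAR libraries were below both controls, which were only 0.0023 apart, and the ADAR1 difference was -0.0299 (95% interval -0.0611 to 0.0014). At 1383 the ADAR1 mean was 0.0106 higher, and ADAR2 #1 lay between Mock and SCR. Another target of a SNHG1 snoRNA, 1490 (SNORD25), was at 0.958 in ADAR1 #1, 0.967 in ADAR1 #2 and 0.967 in ADAR2 #1, with Mock at 0.952 and SCR at 0.950. The 3 targets of snoRNAs from 1 host gene thus did not all lie on the same side of Mock and SCR.

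The stretch that holds 1440, 1442 and 1447 had the 2 lowest levels and, at 1440, the widest range over the libraries (0.120). Position 1440 had a listed level of 0 in ADAR1 #1, of 0.120 in ADAR1 #2 and of 0.0839 in ADAR2 #1, beside 0 in both controls. It was thus above 0 in 2 libraries only, and the 95% interval of the ADAR1 difference ran from -0.0966 to 0.217. Position 1442, a target of SNORD61, was at 0.865 in ADAR1 #1, 0.879 in ADAR1 #2 and 0.872 in ADAR2 #1, with Mock at 0.841 and SCR at 0.840. All 3 ADAR libraries were above both controls there, by 0.0313 for ADAR1 (95% interval -0.0012 to 0.0639) and 0.0315 for ADAR2 (-0.0084 to 0.0714).

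Position 1447, a target of SNORD127, was at 0.112 in ADAR1 #1, 0.144 in ADAR1 #2 and 0.158 in ADAR2 #1, with Mock at 0.163 and SCR at 0.193. All 3 ADAR libraries were below both controls, ADAR2 #1 by less than Mock and SCR were apart. The ADAR1 difference was -0.0502 (95% interval -0.177 to 0.0763). As printed above, SNORD125 pairs with 1437 to 1450, SNORD61 with 1438 to 1451 and SNORD127 with 1444 to 1453, so the 3 spans share 1444 to 1450. The 3 positions lie within 7 nucleotides of each other. RiboMethSeq scores usually compare a position with its flanks, the formula used here is not given, and the part of neighbouring positions in these values was not tested.

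Position 1678, a target of SNORD82 encoded in NCL, was at 0.962 in ADAR1 #1, 0.975 in ADAR1 #2 and 0.969 in ADAR2 #1, with Mock at 0.956 and SCR at 0.943. The unprotected remainder (1 minus the level) was 0.0315 in ADAR1 and 0.0312 in ADAR2 #1, against 0.0503 in Mock and SCR. The ADAR1 difference was 0.0188 (95% interval 0.0028 to 0.0347; limma adjusted p = 0.243). Position 1288, a target of SNORD110, had ADAR1 #1 above and ADAR1 #2 below both controls, with a range of 0.0161.

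The 3′ minor domain holds 2 of the positions. Position 1703, a target of SNORD43 in the decoding region, was at 0.941 in ADAR1 #1, 0.941 in ADAR1 #2 and 0.957 in ADAR2 #1, with Mock at 0.949 and SCR at 0.953. The ADAR1 libraries were 0.0002 apart and lay below both controls, while ADAR2 #1 lay above them. The ADAR1 minus ADAR2 difference was -0.0165 (95% interval -0.0295 to -0.0034; unadjusted p = 0.0224 and adjusted p = 0.528 in limma). Position 1703 was named after its values were seen.

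Position 1804, a target of SNORD20, had the widest range of the 16 positions above 0.5. Its rRNA window is not shown. The guide, in which capitals mark the CTGA box nearest the 3′ end, lies in an intron of NCL, the gene of nucleolin (chr2:231456444-231456523, minus strand).
SNORD20: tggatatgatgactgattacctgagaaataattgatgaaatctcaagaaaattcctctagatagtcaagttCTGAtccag
The levels at 1804 were 0.818 in ADAR1 #1, 0.896 in ADAR1 #2 and 0.887 in ADAR2 #1, with Mock at 0.790 and SCR at 0.807. All 3 ADAR libraries were above both controls, but ADAR1 #1 was nearer to SCR than to ADAR1 #2. The difference was 0.0587 for ADAR1 (95% interval -0.0111 to 0.129; limma adjusted p = 0.330) and 0.0890 for ADAR2 (0.0035 to 0.175; limma adjusted p = 0.363). The unprotected remainder was 0.143 in ADAR1 and 0.113 in ADAR2 #1, against 0.202 in Mock and SCR.

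**Figure D4:**
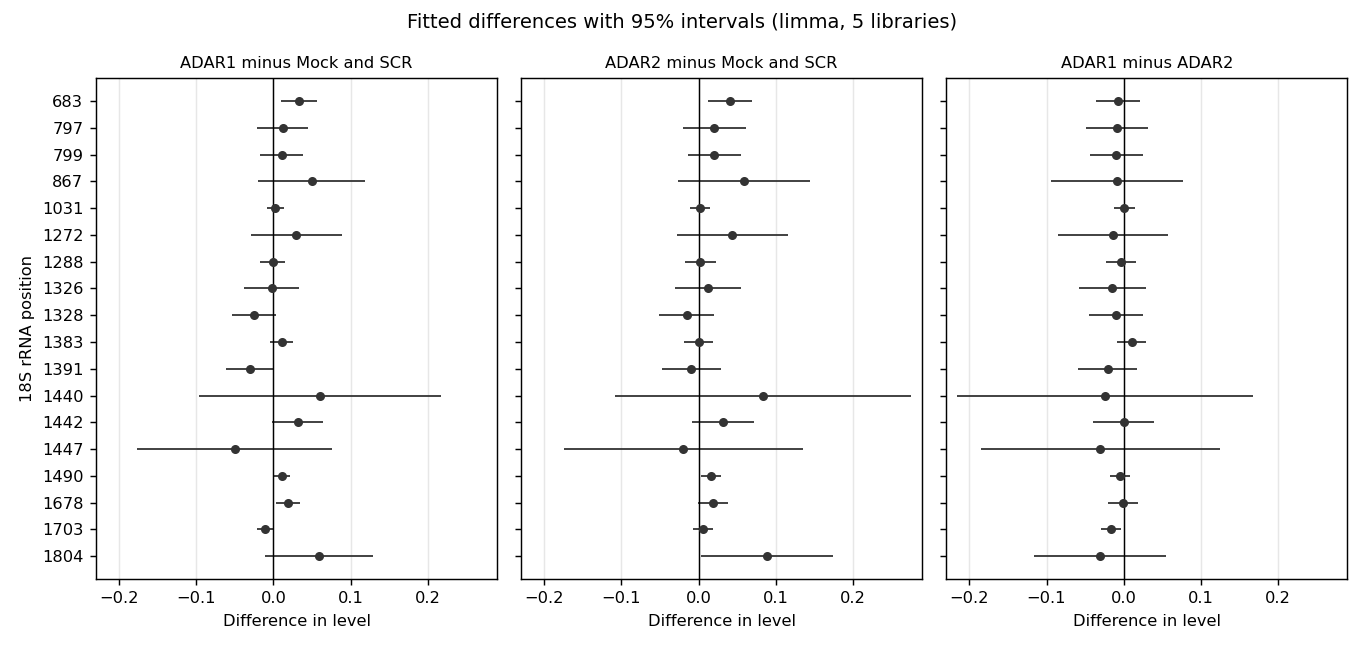
Fitted difference in methylation level at each of the 18 positions for ADAR1 minus Mock and SCR, ADAR2 minus Mock and SCR and ADAR1 minus ADAR2, with 95% intervals of the moderated limma test on 5 libraries. The intervals exclude 0 at 683, 1490 and 1678 for ADAR1, at 683, 1490 and 1804 for ADAR2 and at 1703 for ADAR1 minus ADAR2, before adjustment.

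The mean level over the 18 positions was 0.797 in ADAR1 #1, 0.817 in ADAR1 #2 and 0.818 in ADAR2 #1, with Mock at 0.792 and SCR at 0.799. ADAR1 #1 was thus between Mock and SCR, and ADAR1 #2 and ADAR2 #1 were above both. The difference was 0.0117 for ADAR1, with 0.0216 without ADAR1 #1 and 0.0018 without ADAR1 #2, and 0.0223 for ADAR2. Over the other 92 positions the corresponding differences were 0.0088 and 0.0066. At the 23 lower-numbered positions of 18S they were 0.0047 and 0.0198, and at the 67 positions of 28S they were 0.010 and 0.0013. The ADAR2 difference at the 18 positions was thus near that at the other 18S positions. Taken as a median over the positions of each library, the ADAR1 difference was -0.0014, opposite in sign to the mean. An exact permutation test of 2 libraries against 2 can give no p below 0.33, so none was run. Each single library was also set against the span of Mock and SCR. ADAR1 #1 was above both at 11 of the 18 positions (61.1%, beside 48.2% of all 110) and below both at 5 (27.8%, beside 34.5%). ADAR1 #2 was also above both at 11 (61.1%, beside 60.9% of all 110) and below both at 5 (27.8%, beside 23.6%), so its share above was near that of all positions. A height of at least 0.05 above the controls was reached at 0 of the 18 positions in ADAR1 #1, beside 6 of all 110, and at 3 in ADAR1 #2, beside 15 of all 110.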

How the data were processed

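Per the labels' protocols, purified RNA of PaTu cells was cut by alkaline hydrolysis and sequenced as 5 small RNA libraries. The submitters' processing notes name Bowtie2 2.3.5.1, Trimmomatic 0.39, SAMtools 1.15.1 and FastQC 0.11.9. Neither the rRNA reference nor the score formula is given there. The deposited table holds a methylation level, a fraction from 0 to 1, for 110 positions in each library, without replicate pooling. It has no read counts, so depth is unknown and no counting interval is given. All 5 value columns carried a sample's title.

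Levels were used as deposited. A model of limma 3.58.1 (R 4.3.3) took all positions with 3 groups (ADAR1, ADAR2, and Mock with SCR) and an eBayes trend (2 residual and 3.41 prior degrees of freedom). Tests were two-sided, adjusted by Benjamini-Hochberg over 110 positions, with a threshold of 0.05. The fit was also run on simulated data with the same spread at every position. That setting is simpler than these data, so the run does not show how the fit behaves on them. The size rule counts positions where all libraries of the groups lie apart and the means differ by at least 0.05. Domain lists end at position 1200 (central) and 1690 (3′ major). Full values were to be printed for positions past the test or the size rule, and for the 3 of lowest mean, widest range and largest difference between Mock and SCR, and for neighbouring positions. Positions 683, 1490, 1678 and 1703 were added after their values were seen. The positions were set by nucleotide number alone, but the choice to describe this stretch, and the lists within it, were made with earlier results of these data known. Alternatives were size limits of 0.02 and 0.1, medians, each library left out, a threshold of 0.1, no trend or a robust one, a logit bounded at 0.01 and 0.99, libraries centred on their median, fits of 2 groups only, and leaving out positions under a mean of 0.5. Guide names are background knowledge; pairing was computed from GENCODE release 29 sequences. Figures were drawn with matplotlib 3.10.9.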

Additional observations from a re-analysis of the deposited data

How the results depend on the processing

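No position among the 18 passed in any comparison without a variance trend, with a robust trend, on the logit scale, with positions of a mean of at least 0.5 only, with median-centred libraries or at an adjusted p of 0.1. Lowest adjusted p-values among the 18 were 0.162 to 0.276 for ADAR1, 0.198 to 0.387 for ADAR2 and 0.442 to 0.785 for ADAR1 minus ADAR2 over the limma fits of all 5 libraries other than the reported ones. With only the groups compared, 7 positions passed for ADAR2, with a spread from Mock and SCR alone; Mock and SCR are both at 0 at 1440, where that spread is 0. With 1 library left out, the number that passed ranged from 0 to 11 for ADAR1 and from 2 to 6 for ADAR1 minus ADAR2, in fits where a lone library is assumed to vary like the others, and was 0 for ADAR2. At a limit of 0.02 the size rule gave 8 positions for ADAR1, 8 for ADAR2 and 2 for ADAR1 minus ADAR2. At 0.1 it gave 0 for each. The share of all 110 positions was not counted at these limits, so the counts cannot be set against it. Without a size limit, the libraries lay apart at 66.7% of the 18 for ADAR1, beside 50% of all 110. For ADAR2 the shares were 88.9% and 82.7%, and for ADAR1 minus ADAR2 they were 44.4% and 60%. With 1 library left out, the size rule at its main limit gave 1 to 3 for ADAR1 and 0 to 2 for ADAR1 minus ADAR2. As a median over positions, the ADAR2 difference was 0.0063 in place of 0.0223.

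Some differences changed sign. Median centring gave -0.0012 at 1031 for ADAR1, -0.00079 at 1383 for ADAR2 and -0.0020 at 1031 for ADAR1 minus ADAR2. On the logit scale (natural log odds) the values were -0.00087 at 1383 for ADAR2, and 0.00013 at 1442 and 0.0104 at 1678 for ADAR1 minus ADAR2. With 1 library left out, the range for ADAR1 minus Mock and SCR was -0.00040 to 0.0058 at 1031, -0.0088 to 0.0073 at 1288 and -0.0182 to 0.0137 at 1326. With 1 library left out, the range for ADAR2 minus Mock and SCR was -0.00035 to 0.0039 at 1031 and -0.0049 to 0.0053 at 1383. With 1 library left out, the range for ADAR1 minus ADAR2 was -0.0170 to 0.0027 at 683, -0.0204 to 0.0030 at 797, -0.0427 to 0.0249 at 867, -0.0022 to 0.0040 at 1031, -0.0113 to 0.0048 at 1288, -0.0305 to 0.0014 at 1326, -0.0839 to 0.0360 at 1440, -0.0067 to 0.0064 at 1442, -0.0070 to 0.0063 at 1678 and -0.0693 to 0.0087 at 1804. The causes were not tested. No paired analysis was possible because the groups compared share fewer than 2 replicate numbers in the labels. Unknown depth limits any reading of differences as small as these.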
